A study of Mus musculus with 18 samples.

Results

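The genes described here encode the proteins of the cytosolic ribosome. Members are gene names of both deposited count tables that consist of Rpl or Rps, a number and an optional letter or paralog ending, together with Rplp0, Rplp1, Rplp2 and Rpsa. The pattern found 85 names, of which Rps4l and Rps12l1 are processed pseudogenes in the annotation and were left out. This gave 83 members among 46983 gene rows, 52 of the large subunit and 31 of the small subunit. RNA was sequenced from bone marrow samples titled mBMSC and adipose samples titled mAT-MSC VAT of male C57BL/6J mice, an inbred strain. All library names carry HFD, with Gln added in the glutamine arm, the labels do not spell HFD out, and the series title speaks of obese mice. The 4 groups were adipose with HFD and glutamine (5 libraries), adipose with HFD alone (4), bone marrow with HFD and glutamine (5) and bone marrow with HFD alone (4), and age, dose and duration are not stated. Each title carries a pair of numbers, here used as the library's name, and the labels say neither what the pairs stand for nor that libraries of a group came from separate animals. What a p-value sets a difference against is thus the scatter of these libraries, and that scatter may be technical.

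The ribosome reads messenger RNA into protein. Its small subunit binds the message and checks the codon, and its large subunit joins the amino acids and sheds the new protein through an exit tunnel. Nearly every protein of either subunit is present in a single copy per ribosome, apart from the acidic P proteins of the stalk, so cells make these proteins in matched amounts. Their messages share a control at translation, a run of pyrimidines at the very start called the terminal oligopyrimidine tract. The kinase complex mTORC1, which responds to amino acids and growth factors, sets how well messages with that tract are translated. A change at that step need not show in the amount of messenger RNA, which is what was measured here.

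The start regions of 9 members named in the results are shown, and no level or test below uses these sequences. Rps23, Rps2, Rpl7a, Rpl10 and Rps16 belong to 7 members that varied together between adipose libraries, and Rps27 with Rps27l and Rpl22 with Rpl22l1 are pairs of a main gene and its paralog. Each line runs 5′ to 3′ from 30 bases before the RefSeq start of transcription to 30 bases from it on (GRCm38.p6). Capitals mark a run of at least 6 bases made of C and T alone that touches the 5 bases on either side of the start.
Rps23 (chr13:90923092-90923151, plus strand): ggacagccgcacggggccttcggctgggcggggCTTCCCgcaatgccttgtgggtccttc
Rps2 (chr17:24720033-24720092, plus strand): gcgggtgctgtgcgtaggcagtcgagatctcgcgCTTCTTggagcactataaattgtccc
Rpl7a (chr2:26910777-26910836, plus strand): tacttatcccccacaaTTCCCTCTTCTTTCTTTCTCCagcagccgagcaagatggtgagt
Rpl10 (chrX:74270786-74270845, plus strand): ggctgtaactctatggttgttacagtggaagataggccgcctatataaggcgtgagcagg
Rps16 (chr7:28350659-28350718, plus strand): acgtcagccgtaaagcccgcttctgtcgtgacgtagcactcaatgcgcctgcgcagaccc
Rps27 (chr3:90213619-90213678, minus strand): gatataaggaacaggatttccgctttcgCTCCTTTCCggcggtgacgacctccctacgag
Rps27l (chr9:66946056-66946115, plus strand): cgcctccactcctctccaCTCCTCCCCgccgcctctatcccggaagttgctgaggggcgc
Rpl22 (chr4:152325696-152325755, plus strand): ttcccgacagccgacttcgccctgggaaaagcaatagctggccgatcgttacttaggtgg
Rpl22l1 (chr3:28805478-28805537, plus strand): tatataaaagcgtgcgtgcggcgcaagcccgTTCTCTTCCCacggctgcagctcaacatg
Such a run was present at Rps23, Rps2, Rpl7a, Rps27, Rps27l and Rpl22l1, and none was found at the printed starts of Rpl10, Rps16 and Rpl22. For Rps27l and Rpl22 only 1 of 2 listed starts was searched. At Rps27l the 9-base run began 12 bases before the start and so lay wholly outside the message from that start. At Rps2 and Rps23 it began at base 5 and base 4 of the message. A marked run is thus not by itself the tract at the very start described above. Only the strand of the gene was searched. Of the members, 63 matched the RefSeq table, and 30 of them had such a run at the listed start nearest their annotated 5′ end. Over all 27025 genes listed the share was 21%, but there the first listed start was taken. With 20 members unmatched and starts chosen in different ways the comparison over the family is void, and the counts are a description of these windows alone.

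Adipose libraries held 35871168 to 59529238 counts and bone marrow libraries 13970788 to 37984603. Between 11361 and 14469 genes reached 100 counts in an adipose library, against 1755 to 7323 in a bone marrow library. The thinnest bone marrow libraries by this measure were HFD 23_28 and a glutamine library whose column carries a number pair found in no title, called unnumbered here. The first number of that pair occurs in the title of a glutamine sample and the second in that of an HFD sample. Its arm was taken from the column's prefix. Every bone marrow HFD title has a column of its own, while a bone marrow glutamine title has none. The labels do not link that title to this column, and the tests of Rpl36, Rps27l and Rpl22l1 are also given without this library. The summed level, in counts scaled to a common library total (CPM), of 7 adipose progenitor markers was 24445 to 41751 CPM in adipose and 1768 to 5902 CPM in bone marrow. For 8 osteoblast and bone matrix markers the sum was 5306 to 10052 CPM in adipose and 52519 to 239068 CPM in bone marrow. Collagen I alpha 1 alone took 5.03% to 23.0% of the bone marrow counts. Neutrophil markers (7 genes) summed to 45.7 to 277 CPM in adipose and 2698 to 54233 CPM in bone marrow, and 6 proliferation markers to 93.2 to 268 CPM in adipose and 599 to 5380.2 CPM in bone marrow. The samples are titled as stromal cells, and the part of other cells in the results was not tested. In bulk samples like these, fewer cells of a type and less RNA per cell cannot be told apart.

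**Figure D1:**
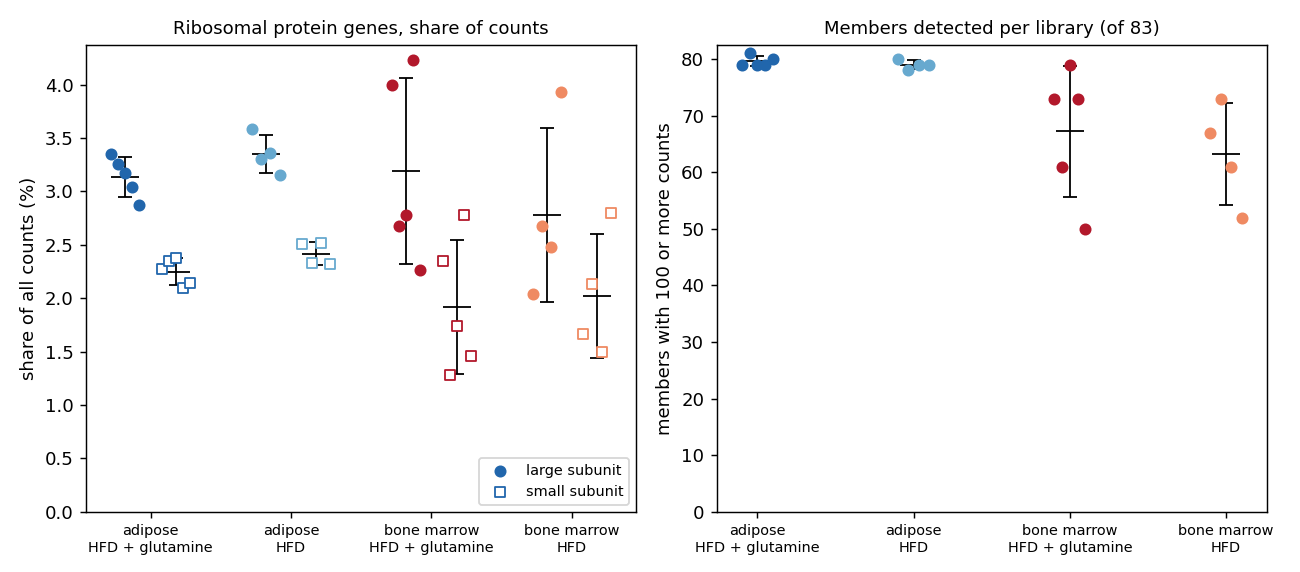
Left, share of all counts in percent held by large subunit genes (filled circles) and small subunit genes (open squares), 1 point per library, with mean and SD per group; right, number of the 83 members with 100 or more counts in each library. The 9 adipose libraries lie close together with 78 to 81 members detected, and the 9 bone marrow libraries spread from 50 to 79.

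Ribosomal protein genes took a part of the counts that overlapped between the tissues, with a wider spread in bone marrow. The 83 members held 5.63%, 5.60%, 5.55%, 5.14% and 5.01% of all counts in the adipose glutamine libraries and 6.09%, 5.62%, 5.88% and 5.48% in the adipose HFD libraries. In bone marrow they held 6.35%, 3.95%, 4.52%, 7.00% and 3.72% with glutamine and 3.70%, 4.80%, 3.97% and 6.73% with HFD alone. The arms overlapped in both tissues, and each bone marrow arm had libraries above and below all adipose libraries. Large subunit genes took 3.14% ± 0.188 (SD, n = 5) of the counts in adipose with glutamine and 3.35% ± 0.177 (SD, n = 4) with HFD alone, and small subunit genes took 2.25% ± 0.125 with glutamine and 2.42% ± 0.109 with HFD alone. In bone marrow the large subunit took 3.19% ± 0.869 with glutamine and 2.78% ± 0.811 with HFD alone, and the small subunit took 1.92% ± 0.627 with glutamine and 2.02% ± 0.583 with HFD alone. Of the members' own counts, the large subunit held 57.1% to 59.5% in the adipose libraries. The same proportion was 60.4% to 67.6% in bone marrow with glutamine and 55.0% to 62.4% in bone marrow with HFD alone, so the arms overlapped and the balance between the subunits was less even between bone marrow libraries. Named pseudogene rows of the members, 269 in all, held only 0.142% to 0.187% of adipose counts and 0.0902% to 0.212% of bone marrow counts.

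**Figure D2:**
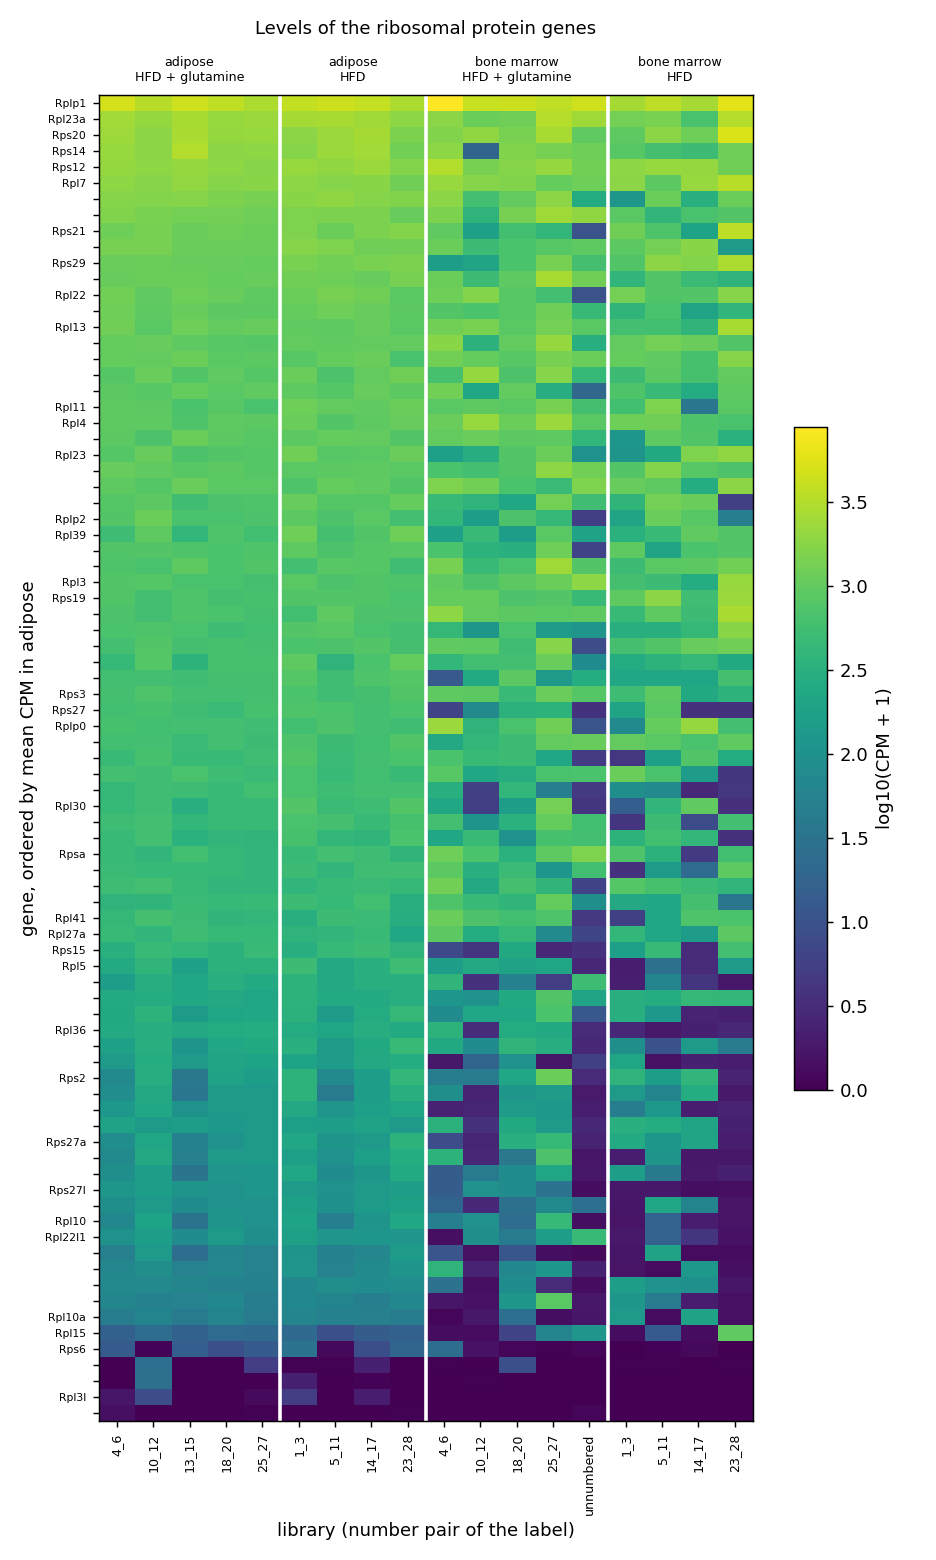
Levels of the 83 members as log10(CPM + 1), genes in rows by falling mean in adipose and libraries in columns by group, with the genes of the naming rule labelled. Rows are nearly even in colour across the 9 adipose libraries, while bone marrow columns hold dark cells for members that are abundant elsewhere, most of all in HFD 23_28 and the unnumbered glutamine library.

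The stalk of the large subunit, which recruits the elongation factors, held the most abundant member. Rplp1 (chromosome 9, 61913284 to 61914542) had 4955, 3329, 4647, 3762 and 2936 CPM in adipose with glutamine and 3804, 4464, 3959.9 and 2866 CPM with HFD alone. In bone marrow it had 8834, 4143, 4219.9, 3686 and 4652 CPM with glutamine and 2568, 3634, 2613 and 6178 CPM with HFD alone. The arms overlapped in each tissue, and only the bone marrow glutamine library 4_6 stood far above the others. Rplp2, its partner on the stalk, averaged 785 ± 218 CPM with glutamine and 761 ± 156 CPM with HFD alone in adipose (SD, n = 5 and n = 4, as for all adipose means here), and ranged over 4.44 to 687 CPM with glutamine and 48.0 to 1114 CPM with HFD alone in bone marrow. Rplp0, which anchors both to the ribosome, averaged 580.3 ± 35.6 CPM with glutamine and 596 ± 61.1 CPM with HFD alone in adipose and ranged over 9.48 to 2229 CPM with glutamine and 74.5 to 2070.4 CPM with HFD alone in bone marrow. Rplp2 and Rplp0 were thus near their adipose levels in some bone marrow libraries and far below in others, lowest in the unnumbered glutamine library.

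Since the kit counts transcript ends, levels of different genes can be set side by side without a correction for length, except where a near-identical copy takes reads. In adipose the 5 highest mean levels belonged to Rplp1, Rpl23a, Rps20, Rps14 and Rps12, and in bone marrow to Rplp1, Rps20, Rps12, Rpl23a and Rpl7. Rpl23a, at the exit of the tunnel, averaged 2338 ± 257 CPM with glutamine and 2388 ± 344 CPM with HFD alone in adipose, and ranged over 1154 to 3263 CPM with glutamine and 655 to 3265 CPM with HFD alone in bone marrow. Rps20, a protein of the head of the small subunit, averaged 2223 ± 365 CPM with glutamine and 2019.5 ± 474 CPM with HFD alone in adipose and ranged over 955 to 2701 CPM with glutamine and 916 to 5297 CPM with HFD alone in bone marrow. Rps12, a small subunit protein, averaged 1925 ± 167 CPM with glutamine and 2004 ± 291 CPM with HFD alone in adipose and ranged over 1271 to 3133 CPM with glutamine and 1236 to 2202 CPM with HFD alone in bone marrow. Every adipose value of Rplp1 lay above every adipose value of Rpl23a, while the adipose values of Rpl23a, Rps20, Rps14 and Rps12 overlapped. The order of all 83 mean levels was alike in adipose and bone marrow, with a Spearman rho of 0.915 across genes, given as a description because genes share their libraries.

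Proteins of the large subunit core had adipose levels under those of Rpl23a. Rpl3, which lies beside the catalytic centre, averaged 695 ± 87.0 CPM with glutamine and 757 ± 66.4 CPM with HFD alone in adipose and ranged over 708 to 1893 CPM with glutamine and 276 to 2175 CPM with HFD alone in bone marrow. Rpl4, which lines the exit tunnel, averaged 881 ± 90.9 CPM with glutamine and 958 ± 149.6 CPM with HFD alone in adipose and ranged over 851 to 2239.9 CPM with glutamine and 654 to 1247 CPM with HFD alone in bone marrow. Rpl39, a short tunnel protein, averaged 632 ± 204 CPM with glutamine and 937 ± 302 CPM with HFD alone in adipose and ranged over 159 to 854 CPM with glutamine and 335 to 969.6 CPM with HFD alone in bone marrow. All 3 reached 100 counts in every library, and their arms overlapped in both tissues. Rpl22, on the outer surface of the large subunit, averaged 1095 ± 150.3 CPM with glutamine and 1154 ± 220.3 CPM with HFD alone in adipose and ranged over 9.18 to 1650.4 CPM with glutamine and 743 to 1686 CPM with HFD alone in bone marrow. Rpl41, the shortest protein of the ribosome, averaged 464 ± 90 CPM with glutamine and 395 ± 118 CPM with HFD alone in adipose and ranged over 3.55 to 1112 CPM with glutamine and 4.61 to 728 CPM with HFD alone in bone marrow. Both were close to 0 in the unnumbered bone marrow glutamine library, and Rpl41 also in HFD 1_3.

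Rpl5 and Rpl11 form a particle with the 5S RNA and can bind and restrain Mdm2, the ubiquitin ligase of p53. In adipose, Rpl5 averaged 300.5 ± 81.2 CPM with glutamine and 398 ± 143 CPM with HFD alone, and Rpl11 averaged 793 ± 123 CPM with glutamine and 1070.1 ± 106 CPM with HFD alone. In bone marrow, Rpl5 ranged over 1.90 to 239 CPM with glutamine and 1.11 to 136 CPM with HFD alone, and Rpl11 over 600.1 to 1362 CPM with glutamine and 34.1 to 1533 CPM with HFD alone. The partners were thus unequal in level in both tissues, Rpl11 being the higher in every adipose library. Rpl23, on the face toward the small subunit and another Mdm2 partner, averaged 832 ± 143 CPM with glutamine and 1002 ± 188 CPM with HFD alone in adipose and ranged over 107 to 1163 CPM with glutamine and 109.5 to 1938 CPM with HFD alone in bone marrow.

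Small subunit proteins of the same panel reached 100 counts in every library, apart from those described with the variable and scarce members. Rpsa, also known as a laminin receptor, averaged 448 ± 72.0 CPM with glutamine and 491 ± 89.6 CPM with HFD alone in adipose and ranged over 332 to 1509 CPM with glutamine and 3.71 to 711 CPM with HFD alone in bone marrow. Rps3, at the entry of the messenger RNA channel, averaged 614 ± 56.2 CPM with glutamine and 641 ± 84.8 CPM with HFD alone in adipose and ranged over 472 to 1108 CPM with glutamine and 252 to 920.4 CPM with HFD alone in bone marrow. Rps19, the gene most often mutated in the human red cell disorder Diamond-Blackfan anaemia, averaged 657 ± 76.9 CPM with glutamine and 727 ± 57.0 CPM with HFD alone in adipose and ranged over 467 to 1046 CPM with glutamine and 536 to 2220.2 CPM with HFD alone in bone marrow. The low value of Rpsa was that of bone marrow HFD 14_17, with 104 counts, and the other 8 bone marrow libraries had 332 CPM or more.

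A few members were low in most libraries. Rps6, the small subunit protein that is phosphorylated downstream of mTORC1, had 12.3, 0.0840, 13.9, 8.24 and 12.9 CPM in adipose with glutamine and 30.6, 0.195, 7.82 and 18.3 CPM with HFD alone. Adipose glutamine 10_12 and HFD 5_11 stood near 0 while the other 7 had between 7.82 and 30.6 CPM, and in bone marrow only glutamine 4_6, with 25.8 CPM, passed 1 CPM. Rpl24 had at most 18 counts in any of the 18 libraries. Its exons overlap those of Gm28037 on the same strand, and Rps6 and Rpl15 have 4 named pseudogene rows each. How reads that match more than 1 gene were counted is not given in the sources used here, so the low levels of Rpl24, Rps6 and Rpl15 are uncertain. Rpl15, a large subunit protein, averaged 20.0 ± 4.04 CPM with glutamine and 14.7 ± 5.41 CPM with HFD alone in adipose and had 965 CPM in bone marrow HFD 23_28. Rpl24 and Rpl10l passed the count filter of no test. Rpl39l did not pass in adipose, nor Rpl39l, Rpl3l and Rps6 in bone marrow, when each tissue was tested for glutamine.

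Detection separated the tissues more than the share of counts did. In adipose 78 members had 100 counts or more in all 9 libraries, 4 in some and 1 in none, while in bone marrow 42 reached that level in all 9 libraries, 38 in some and 3 in none. Of members that reached 100 counts in any library of the tissue, 95.1% did so in every adipose library and 52.5% in every bone marrow library. Over all genes the same shares were 48.6% in adipose and 2.53% in bone marrow. Members were more abundant than most genes, and the part of abundance in these shares was not tested. The 38 members found in some bone marrow libraries had a median adipose level of 197 CPM, and the 42 found in all 915 CPM. In bone marrow, 24 large and 18 small subunit members reached 100 counts in all libraries. Glutamine 18_20, the library with the most genes detected, held 79 members, while HFD 23_28 held 52 and the unnumbered glutamine library 50. Among 72 members with at least 100 CPM in adipose, the coefficient of variation (SD over mean, 9 libraries) had a median of 16.2% in adipose and 73.0% in bone marrow.

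**Figure D3:**
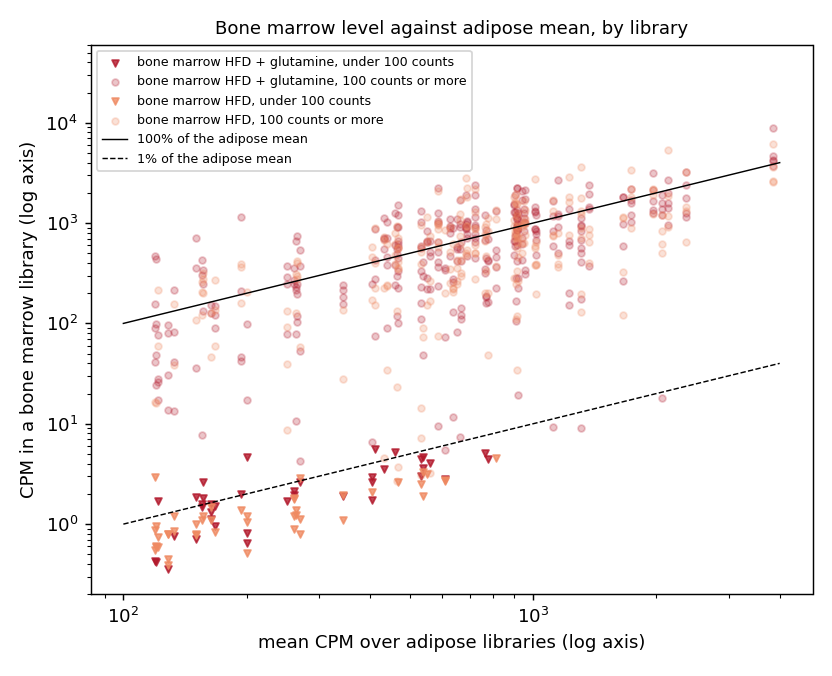
CPM of a member in a bone marrow library against its mean CPM over the adipose libraries, both on log axes, for the 72 members with at least 100 CPM in adipose; triangles have under 100 counts, and lines mark 100% and 1% of the adipose mean. Most points lie within a factor of 10 of the upper line, and the triangles lie in a band near or below the lower one.

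The same member could be near its adipose level in 1 bone marrow library and near 0 in another. Rps14, a protein of the small subunit platform, had 18.0 CPM in glutamine 10_12 and 1917, 1569.9, 1375 and 1196 CPM in the other glutamine libraries. Rpl30, a large subunit protein, had 232, 4.44, 159, 1315 and 3.02 CPM with glutamine and 14.2, 395, 951 and 2.48 CPM with HFD alone. Rps14 was low in 1 library and Rpl30 in 4, and elsewhere both were at 159 CPM or more. Under 100 counts were 2 to 23 of the 72 members in each of 8 bone marrow libraries and 0 in glutamine 18_20, at a median of 0.341% to 0.962% of their adipose mean. In the 5 libraries with at least 8 of them, these remaining counts followed the adipose mean with a Spearman rho of 0.51 to 0.86 across members, a description over genes of 1 library. The source of these counts was not tested.

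**Figure D4:**
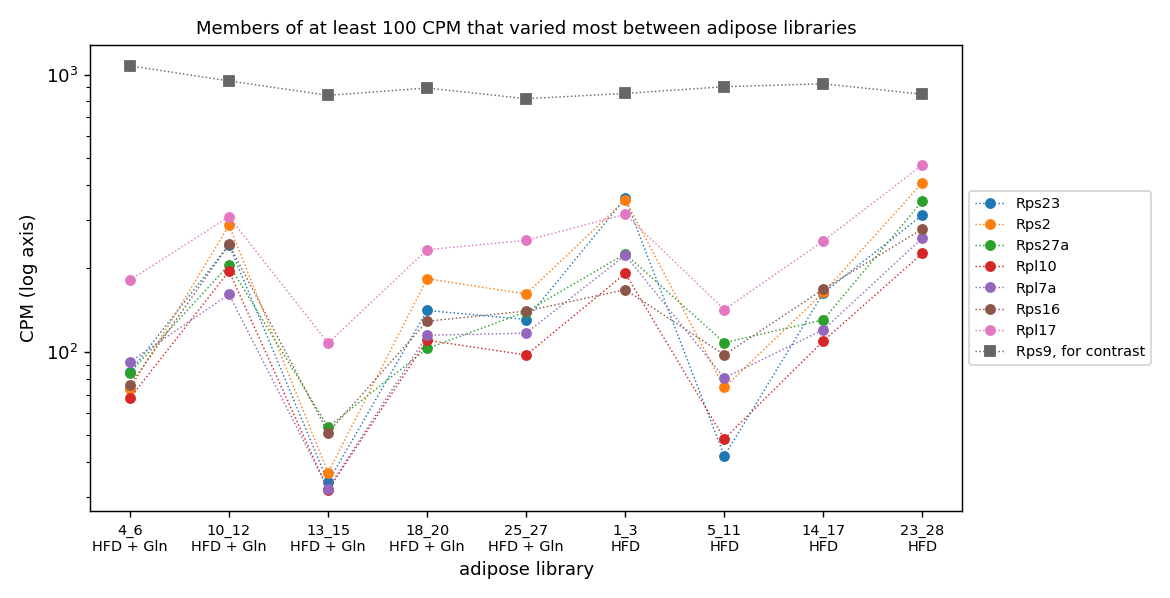
CPM on a log axis in the 9 adipose libraries for the 7 members with the largest relative spread among those with a mean of at least 100 CPM in adipose, and for Rps9, glutamine libraries at the left and HFD libraries at the right. The 7 rise and fall together between libraries of both arms, highest in HFD 23_28 or HFD 1_3 and lowest in glutamine 13_15, while Rps9 stays between 818 and 1075 CPM.

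Within adipose, 7 abundant members varied together between libraries. Of the 72 members with at least 100 CPM, Rps23, Rps2, Rps27a, Rpl10, Rpl7a, Rps16 and Rpl17 had a coefficient of variation of 40% or more, a level set after their values were seen. The coefficient was 68.4% for Rps23 to 43.1% for Rpl17 inside that level and 37.0% for Rpl39, 36.9% for Rps24 and 36.8% for Rps18 outside it, and scarcer members such as Rps6 at 80.7% exceeded it as well. Rps2, at the entry of the messenger RNA channel, had 73.5, 286, 36.7, 184 and 162 CPM with glutamine and 354, 74.4, 164 and 408 CPM with HFD alone. Rpl10, a late-joining large subunit protein, had 68.1, 195, 31.8, 110.2 and 97.5 CPM with glutamine and 192, 48.6, 109.6 and 227 CPM with HFD alone. High and low libraries occurred in both arms, and the arms overlapped for all 7 members. Rps27a, made as a fusion with ubiquitin, had 84.0, 206, 53.6, 103 and 139.6 CPM with glutamine and 226, 108, 131 and 351 CPM with HFD alone. The ratio of the highest to the lowest library ran from 4.39 for Rpl17 to 11.1 for Rps2, and the lowest library was glutamine 13_15 for each. Pairwise Spearman rho over the 9 libraries was 0.83 to 0.98 among the 7, with a median of 0.93, against a median of 0.19 among the other 65. That median hides members just under the level that rose and fell with the 7. Rps24 had 435, 817, 357, 633 and 628.5 CPM with glutamine and 933, 367, 682 and 1027 CPM with HFD alone. Rps18 was likewise lowest in glutamine 13_15, at 139 CPM, and highest in HFD 23_28, at 429 CPM. The pattern was thus not particular to the 7. The 7 were chosen for their spread, so these values describe them and are no test. Their summed level was 660, 1643, 347, 1015 and 1039 CPM with glutamine and 1834, 594, 1107 and 2304 CPM with HFD alone. In the highest of these libraries, HFD 23_28, B and plasma cell markers summed to 3857 CPM and endothelial markers to 378 CPM, while in the lowest, glutamine 13_15, the B and plasma cell sum was 505 CPM and the endothelial sum 1485 CPM. Over all adipose libraries the B and plasma cell sum was 228 to 1302 CPM with glutamine and 606 to 3857 CPM with HFD alone, and the part of these cells was not tested. Adipose progenitor markers summed to 36697 CPM in HFD 23_28 and 41751 CPM in HFD 1_3, and were lowest of all adipose libraries in glutamine 13_15, at 24445 CPM. Across the 9 libraries, which share their markers and depth, Spearman rho with the summed level of the 7 was 0.70 for adipose progenitor, 0.68 for B and plasma cell and -0.72 for endothelial markers, given as a description. The other measures looked at gave 0.42 for total counts, 0.33 for macrophage markers and 0.18 for genes at 100 counts. For the share of pseudogene rows rho was 0.067, and for the summed level of the other 65 members it was 0. In adipose, pseudogene rows of Rps23 held 76.0 to 214 CPM, those of Rps16 102 to 223 CPM and those of Rpl10 74.8 to 121 CPM. Those of Rpl7a held 9.54 to 31.9 CPM, of Rps2 2.26 to 7.71 CPM, of Rpl17 0.223 to 14.6 CPM and of Rps27a 0.130 to 13.4 CPM. The part of reads shared with pseudogene rows was not tested. Of the 7, Rps27a and Rpl17 did not match the RefSeq table, and the start regions of the other 5 are printed above.

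Paralogs of ribosomal proteins, which replace the main protein in some tissues, were accounted for in turn. Rps27l, a p53-responsive paralog of the zinc finger protein Rps27, gave 17.8% ± 1.88 (SD, n = 5) of the pair's counts in adipose with glutamine and 16.8% ± 2.74 (SD, n = 4) with HFD alone. Rpl22l1, a paralog of Rpl22, gave 9.43% ± 3.06 with glutamine and 10.2% ± 2.48 with HFD alone. Rpl36al, a paralog of Rpl36a, gave 21.2% ± 1.87 with glutamine and 23.2% ± 2.26 with HFD alone. The arms overlapped for all 3 of these shares in adipose. Rpl7l1, related to Rpl7 and known for a role in ribosome assembly, gave 3.08% ± 0.545 with glutamine and 3.72% ± 1.08 with HFD alone. In bone marrow the share of Rps27l ranged over 7.97% to 71.3% with glutamine and 0.0942% to 13.8% with HFD alone, and that of Rpl22l1 over 0.0367% to 98.1% with glutamine and 0.0324% to 2.18% with HFD alone. The highest share of Rpl22l1 was in the unnumbered glutamine library, where Rpl22 itself was at 9.18 CPM. Rpl3l, the paralog of heart and skeletal muscle, was found at 100 counts or more in 2 adipose libraries, with 7.63 CPM in glutamine 10_12 and 4.24 CPM in HFD 1_3, and had 0 counts in bone marrow. Rpl10l and Rpl39l, paralogs known from the testis, were also highest in adipose glutamine 10_12, at 27.7 CPM for Rpl10l and 26.6 CPM for Rpl39l. In the other adipose libraries Rpl10l was at most 1.18 CPM and Rpl39l at most 4.15 CPM, and in bone marrow Rpl39l passed 1 CPM only in glutamine 18_20, at 8.05 CPM.

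**Figure D5:**
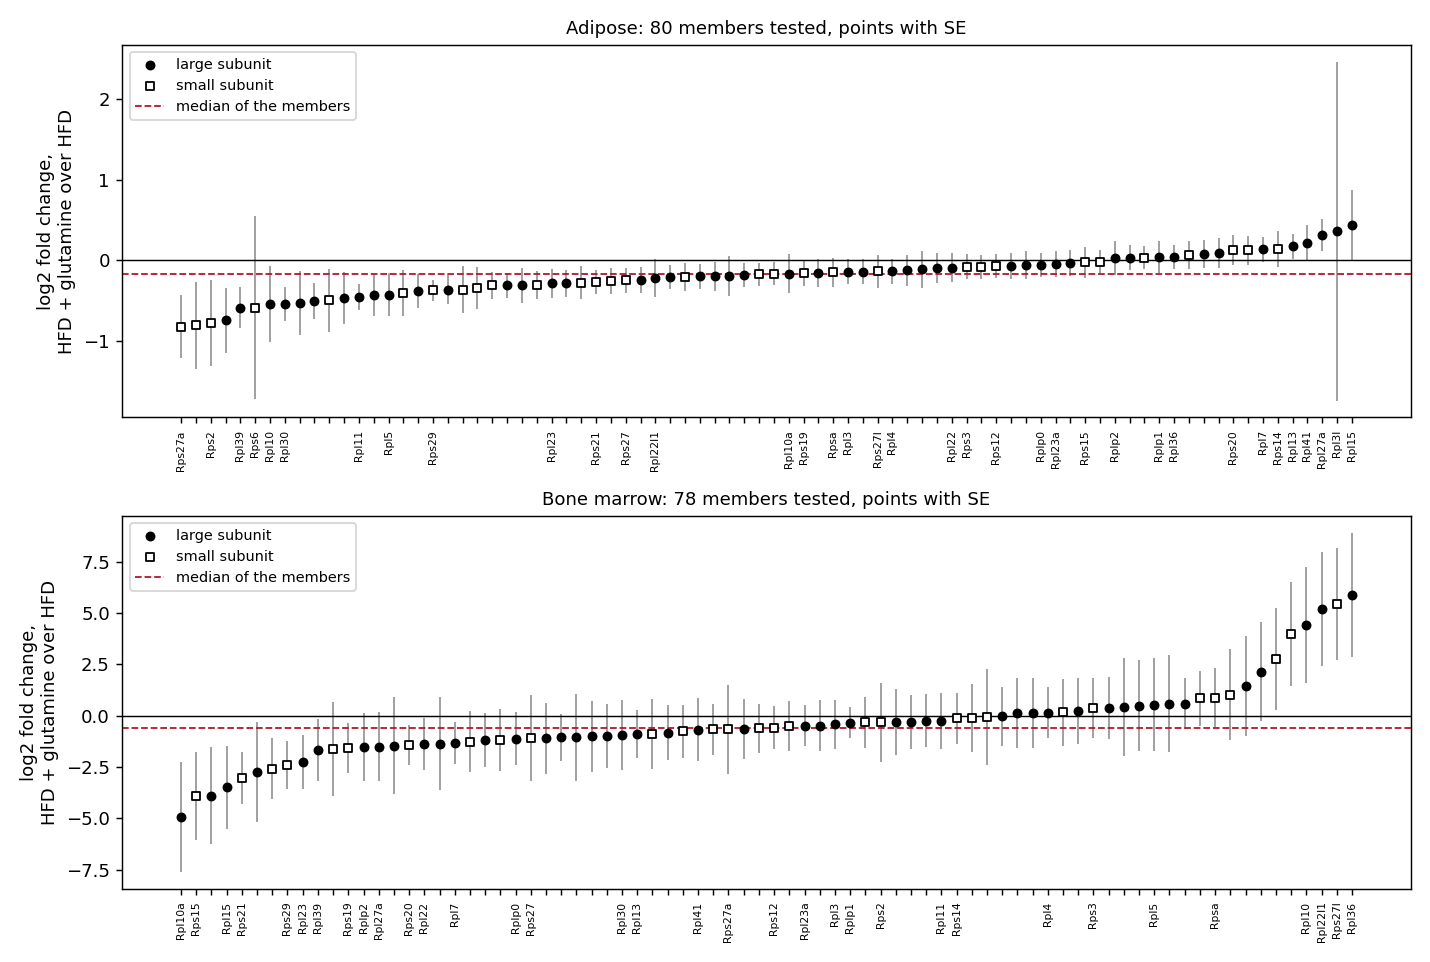
Log2 fold change of glutamine over HFD with SE for each tested member, large subunit as filled circles and small subunit as open squares, adipose above and bone marrow below on different scales, with the genes of the naming rule labelled. The red line marks the members' median, -0.17 in adipose and -0.60 in bone marrow, and in bone marrow most SE bars cross 0.

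With glutamine, no member passed the threshold in adipose, and 63 of 80 tested had a negative fold change, against 7762 of all 15114 genes. Members share their libraries and scaling, so their signs are not independent. Of 80 members tested with edgeR's quasi-likelihood test, after scaling by TMM factors (a trimmed mean of log ratios between libraries), 0 had a Benjamini-Hochberg adjusted p under 0.05, and 0% of the 15114 genes tested were called. At an unadjusted p under 0.05 there were 5 members, against 4.13% of all genes, and DESeq2 called 1 member, against 1.03% of the genes it tested. The median log2 fold change of the members was -0.17, beside -0.017 over all genes. The median was -0.16 for the 49 large subunit members tested and -0.21 for the 31 of the small subunit, and the members' shares of counts overlapped between the arms as given above.

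Rps29 had the smallest p in adipose. This zinc-binding protein of the small subunit head (chromosome 12, 69157722 to 69159186) had 1109, 1135, 1082, 1076 and 1030.1 CPM with glutamine and 1437, 1270.4, 1396 and 1451 CPM with HFD alone. Every glutamine library was below every HFD library, in CPM and in TMM-scaled CPM, in which arms stood apart this way for 0.609% and 0.635% of all genes. The log2 fold change was -0.37 ± 0.133 (SE; edgeR adjusted p = 1.00), and DESeq2 gave an adjusted p of 0.0217. Rpl11 had 919, 887, 675, 833 and 651 CPM with glutamine and 1182, 1006, 957 and 1135 CPM with HFD alone, at -0.45 ± 0.163 (SE; edgeR adjusted p = 1.00). Rpl30 followed at -0.54 ± 0.210 (SE; edgeR adjusted p = 1.00), with 439, 548, 294, 478 and 479 CPM in glutamine libraries and 772, 491, 521 and 782 CPM in HFD libraries. For Rpl11 the arms stood apart in CPM but overlapped in TMM-scaled CPM, and for Rpl30 they overlapped in both. No member had all glutamine libraries above all HFD libraries, while 1.05% of all genes did in CPM and 1.04% in TMM-scaled CPM. In the other direction the smallest p belonged to the large subunit members Rpl27a at 0.32 ± 0.199, Rpl13 at 0.17 ± 0.160 and Rpl15 at 0.43 ± 0.440 (SE; edgeR adjusted p = 1.00 for each). Macrophage markers (8 genes) summed to 255 to 696 CPM with glutamine and 518 to 1564 CPM with HFD, and their part in these differences was not tested.

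In bone marrow no member passed the threshold either, and the direction of the members as a group depended on the scaling. Of 78 members tested 0 were called by edgeR, against 0.132% of the 6041 genes tested, and 3 had an unadjusted p under 0.05, against 18.7% of all genes. DESeq2 called 6 members, against 8.55% of the genes it tested, and a joint fit of all 18 libraries 9, against 25.8%. The log2 fold change was negative for 55 members and positive for 23, against 3225 and 2816 of all genes. The members' median was -0.60, beside -0.22 over all genes. With library totals in place of TMM factors the members' median turned to 0.11, with 47 positive, and without HFD 23_28 it was -0.087. The median dispersion of the tested members, a measure of spread between libraries of 1 group beyond counting, was 2.56 in bone marrow and 0.0542 in adipose. Over all genes tested it was higher, at 3.32 in bone marrow and 0.378 in adipose. The joint fit gave each gene a dispersion shared by both tissues, at a median of 1.03 for the members and 2.00 for all genes.

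Among negative changes in bone marrow the smallest p belonged to Rps21, Rps29 and Rpl10a. Rps21, a small subunit protein, had 953, 175, 565, 406 and 9.12 CPM with glutamine and 1239, 714, 195 and 3621 CPM with HFD alone, at -3.03 ± 1.27 (SE; edgeR adjusted p = 0.197). Rps29 had 154, 199, 662, 1375 and 612 CPM with glutamine and 754, 1803, 1640.1 and 2891 CPM with HFD, at -2.38 ± 1.17 (SE; edgeR adjusted p = 0.242). The arms overlapped for Rps21 and for Rps29, and the highest value of each was in HFD 23_28. Rpl10a, a large subunit protein, had 0.172, 0.787, 26.3, 0.423 and 0.711 CPM with glutamine and 129, 0.288, 184 and 0.497 CPM with HFD, at -4.94 ± 2.67 (SE; edgeR adjusted p = 0.307), and reached 100 counts in 1 of 5 glutamine libraries and 2 of 4 HFD libraries. Rpl10a has 2 named pseudogene rows, and with pseudogene counts added its change was 0.41.

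Positive changes in bone marrow were led by Rps27l, Rpl36 and Rpl22l1. Rps27l (chromosome 9, 66946086 to 66949516) had 13.6, 96.7, 79.4, 30.8 and 0.355 CPM with glutamine and 0.790, 0.806, 0.393 and 0.447 CPM with HFD. Rpl36, a large subunit protein (chromosome 17, 56613416 to 56614243), had 355, 2.15, 271, 249 and 1.95 CPM with glutamine and 1.79, 0.892, 1.21 and 1.84 CPM with HFD. Rpl22l1 (chromosome 3, 28805436 to 28807424) had 0.430, 91.0, 41.5, 158 and 474 CPM with glutamine and 0.869, 16.6, 2.96 and 0.546 CPM with HFD. In HFD libraries Rps27l stayed under 1 CPM and Rpl36 under 2 CPM, while 4 of 5 glutamine libraries exceeded 10 CPM of Rps27l and 3 of 5 exceeded 240 CPM of Rpl36. The arms overlapped for Rps27l and Rpl22l1. For Rpl36 they stood apart in CPM, by 1.95 CPM in the unnumbered glutamine library against 1.84 CPM in HFD 23_28, which held for 3.53% of all genes in that direction, and they overlapped in TMM-scaled CPM, in which 1.99% stood apart. No member had all glutamine libraries below all HFD libraries, against 0.248% of all genes in CPM and 0.513% in TMM-scaled CPM. The log2 fold changes were 5.44 ± 2.72 for Rps27l, 5.90 ± 3.02 for Rpl36 and 5.19 ± 2.77 for Rpl22l1 (SE; edgeR adjusted p = 0.251 for Rps27l, 0.269 for Rpl36 and 0.300 for Rpl22l1). Without the unnumbered library they were 5.67 for Rps27l, 6.13 for Rpl36 and 3.38 for Rpl22l1 (edgeR adjusted p = 0.251 for Rps27l, 0.247 for Rpl36 and 0.589 for Rpl22l1). In adipose Rps27l had 123, 163, 109, 104 and 119 CPM with glutamine and 145, 99.97, 132 and 160.2 CPM with HFD alone, a narrow range in both arms.

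When the difference of the glutamine effect between adipose and bone marrow was itself tested over all 18 libraries, Rpl36 and Rps27l were called, a smaller share of members than of all genes, and the calls depended on the settings. Of 81 members tested 2 were called by edgeR, both lower, against 11.9% of the 15203 genes tested, 4.05% higher and 7.87% lower. At an unadjusted p under 0.05 there were 5 members, against 27.5% of all genes, and DESeq2 called 6, against 7.11%. The difference (adipose minus bone marrow) was -6.51 ± 1.79 for Rpl36 and -5.83 ± 1.68 for Rps27l (SE; edgeR adjusted p = 0.0432 for both). This fit gave each gene a dispersion shared by both tissues, with a members' median of 1.03. In fits by tissue that median was 2.56 in bone marrow and 0.0542 in adipose. These SE and p-values thus do not measure the scatter of the bone marrow libraries alone. In adipose alone the log2 fold change was 0.042 ± 0.152 for Rpl36 and -0.14 ± 0.205 for Rps27l (SE; edgeR adjusted p = 1.00 for both). Both calls held in 5 of 18 fits that left out 1 library, those without a bone marrow glutamine library, and were lost in 13, those without any other library, over which the edgeR adjusted p ran from 0.0345 to 0.0770 for Rpl36 and 0.0351 to 0.0770 for Rps27l. Neither was called with upper-quartile or relative log expression factors, with limma-voom or with the replicate block, Rps27l was lost without a count filter and Rpl36 with pseudogene rows added. Without the unnumbered library the difference was -6.53 for Rpl36 and -5.84 for Rps27l (edgeR adjusted p = 0.0352 for both). Rpl22l1 followed at -5.29 ± 1.95 (SE; edgeR adjusted p = 0.0709), and at -3.55 without the unnumbered library (edgeR adjusted p = 0.210). On the positive side the smallest p belonged to Rpl10a at 4.37 ± 2.20, Rps15 at 3.48 ± 1.84 and Rps29 at 1.55 ± 0.903 (SE; edgeR adjusted p = 0.206 for Rpl10a, 0.237 for Rps15 and 0.305 for Rps29). Rps15, a protein of the small subunit head, had 6.54, 2.93, 249, 1.72 and 2.61 CPM in bone marrow with glutamine and 169.7, 461, 2.11 and 583 CPM with HFD, so 1 of 5 glutamine libraries and 3 of 4 HFD libraries held it at over 100 CPM.

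Between adipose and bone marrow, the direction of the members depended on the scaling, and their place among other genes depended on which genes they were set against. In mean CPM 57 of 83 members were higher in adipose and 26 lower. On that scale the median of all genes lay further toward adipose, as given below for library totals. With TMM factors 45 of 81 members were called by edgeR, against 51.7% of 15203 genes, 3 higher in adipose and 42 lower, where 40.5% and 11.2% of all genes were called. The median log2 difference was -1.52 for the members and 1.43 for all genes. Of the genes in this fit, 9016 passed the count filter in adipose and not in bone marrow, when each tissue was filtered on its own, and their median was 4.58. Over the 6014 genes that passed in both tissues the median was -1.38, beside -1.54 for the 78 members among them, of which 2 were called higher and 42 lower, against 8.96% and 24.6% of those genes. This split was added after the data were seen. With library totals alone 9 members were called, all higher, where 53.3% of all genes were called higher and 2.56% lower. The medians were then 0.42 for the members and 3.17 for all genes. Relative log expression factors gave medians of -5.36 for the members and -1.94 for all genes, with 73 members called lower, against 42.9% of all genes called lower and 16.2% higher. Upper-quartile factors gave -4.84 for the members and -0.89 for all genes, with 1 member higher and 66 lower, against 21.2% and 33.8% of all genes. DESeq2 called 72 members lower, against 30% of all genes, and limma-voom 9 higher and 28 lower, against 26.9% and 2.49%. Without a count filter 4 members were higher and 23 lower, against 29.7% and 6.97% of all genes. The edgeR p-values of the tissue difference also rest on dispersions shared by both tissues, not on the scatter of bone marrow libraries alone. Tissue, isolation and count table went together, and their parts cannot be told apart.

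The 42 members called lower in adipose with TMM factors were 27 of the large and 15 of the small subunit. Those of the large subunit included Rpl3, Rpl4, Rpl6, Rpl7, Rpl8, Rpl11, Rpl12, Rpl13, Rpl13a, Rpl14, Rpl15, Rpl18, Rpl22, Rpl23, Rpl23a, Rpl26, Rpl27, Rpl27a, Rpl31, Rpl32, Rpl34, Rpl36a, Rpl39, Rpl41, Rplp0 and Rplp1. Those of the small subunit included Rps3, Rps9, Rps10, Rps12, Rps15a, Rps19, Rps20, Rps24, Rps25, Rps26, Rps28, Rps29 and Rpsa. Rplp1 had overlapping CPM in the tissues, 2866 to 4955 CPM in adipose and 2568 to 8834 CPM in bone marrow, and a fitted log2 difference of -2.16 ± 0.322 (SE; edgeR adjusted p = 1.25e-05). TMM factors, by which CPM is divided before the fit, were 1.54 to 2.21 in adipose libraries and 0.322 to 0.941 in bone marrow libraries. Rpl4 differed by -2.23 ± 0.361 (SE; edgeR adjusted p = 3.16e-05) and Rps19 by -2.53 ± 0.415 (SE; edgeR adjusted p = 3.61e-05).

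The 3 largest tissue differences were those of Rpl3l, Rpl15 and Rps27l. Rpl15 stood at -4.75 ± 1.43 (SE; edgeR adjusted p = 0.00935). It had 8.08 to 24.6 CPM in the adipose libraries and 965 CPM in bone marrow HFD 23_28, the other bone marrow libraries holding 0.286 to 114 CPM. Without HFD 23_28 the difference was -1.52 and was not called (edgeR adjusted p = 0.255). Members called higher in adipose were Rpl3l, Rps27l at 2.92 ± 0.841 and Rpl36 at 2.16 ± 0.852 (SE; edgeR adjusted p = 0.00703 for Rps27l and 0.0389 for Rpl36), and Rps27l and Rpl36 turned negative under upper-quartile or relative log expression factors. Rpl3l had 784 counts over the adipose libraries and 0 over the bone marrow libraries, at least 142-fold higher in pooled CPM against a floor of 3 counts over the bone marrow group. Of its adipose counts, 454 were in glutamine 10_12 and 229 in HFD 1_3. The smallest differences were those of Rps15 at 0.015 ± 0.890, Rps27 at -0.063 ± 0.900 and Rpl22l1 at 0.077 ± 0.916 (SE), all of which change sign with the scaling or with 1 library left out.

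Other genes of protein synthesis were read from lists. Ribosomal proteins whose names fall outside the pattern included Rps3a1, Fau and Rack1, deposited as Gnb2l1. Rack1, a signalling scaffold on the small subunit, averaged 789.9 ± 61.3 CPM with glutamine and 739 ± 52.1 CPM with HFD alone in adipose. None of the 3 was called with glutamine in either tissue. Of 32 ribosome assembly factors, 32 were tested for glutamine in adipose and 22 in bone marrow, with 0 called and medians of -0.081 in adipose and 0.24 in bone marrow. Translation factors (36 tested in adipose and 34 in bone marrow) had 0 called and medians of -0.03 in adipose and -0.35 in bone marrow. Regulators of mTORC1 and of tract-bearing messages (23 and 14 tested) had 0 called and medians of -0.012 in adipose and 0.58 in bone marrow. None of these lists had a gene past the threshold with glutamine, nor had the mitochondrial ribosomal proteins (75 and 39 tested), at medians of -0.073 in adipose and 0.49 in bone marrow. At an unadjusted p under 0.05 in bone marrow there were 12 of the 39 mitochondrial ribosomal proteins, against 18.7% of all genes. Those encoded proteins act in the mitochondrion and belong to a separate ribosome.

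Between adipose and bone marrow, with TMM factors, assembly factors had 5 of 32 genes called higher in adipose and 8 lower, at a median log2 difference of -1.91, where 40.5% of all genes were called higher and 11.2% lower. Translation factors had 0 of 36 higher and 17 lower, at -1.86. The mTORC1 list had 6 of 23 higher and 5 lower, at 0.86, and the mitochondrial ribosomal proteins 13 of 75 higher and 7 lower, at -0.18. These stand beside -1.52 for the members, 1.43 for all genes and -1.38 for genes that passed the count filter in both tissues. For the difference of the glutamine effect, 2 assembly factors, 3 translation factors, 5 genes of the mTORC1 list and 14 mitochondrial ribosomal proteins were called lower, and 1 translation factor and 2 mitochondrial ribosomal proteins higher, against 7.87% lower and 4.05% higher over all genes.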

How the data were processed

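A kit that counts messages at their poly(A) end was used on 30 ng of total RNA per library, and only the first read was taken, per the labels' protocols. The values deposited are raw read counts, whole numbers, per gene and library. FastQC 0.12.1, STAR 2.7.10b, HTSeq 0.11.3 and GRCm38 are named per the submitters' processing notes, while for annotation, strand setting and reads with several matches the sources used here give nothing. The members, gene lists and named genes were chosen with earlier results of these data known.

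Libraries were grouped by tissue and treatment labels. The bone marrow column with a number pair found in no title names the glutamine arm and was used there. Of its numbers, 1 occurs in the title of an HFD sample, which has a column of its own. Levels are CPM of the library total. Tests used edgeR 4.0.16 in R 4.3.3 over all genes passing filterByExpr, with TMM factors, a two-sided quasi-likelihood test and Benjamini-Hochberg adjustment at 0.05, each tissue on its own 9 libraries and the difference of effects and the tissue difference on all 18. The SE is the absolute log2 fold change over the square root of F. The tests were tried on simulated counts, whose spread was set below the median dispersion of all genes in each fit. That trial gives no error rate at the spread of these data. Named were a fixed panel by role, the paralogs, the 3 smallest p per direction in the glutamine comparisons and their difference, the 3 largest and 3 smallest tissue differences, the 5 highest means per tissue and all members called, of which some are not reported by name here. Gene positions are 1-based and from GENCODE M21 (GRCm38), and sequences from RefSeq GRCm38.p6. Alternatives were other scaling factors, filters, DESeq2 1.42.0, limma-voom (limma 3.58.1), added pseudogene rows, a joint fit, a replicate block and leaving out each library, and, added after seeing the data, library totals and leaving out the 2 thinnest bone marrow libraries. Intervals of counts are not given, and no molecular identifiers are named, so reads copied from 1 molecule are not told apart.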

Additional observations from a re-analysis of the deposited data

Results flagged for a closer look

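In 152 groups of levels and shares looked at, 17 had a highest or lowest library set apart from the others by Dixon's criterion. Chance meets it in about 1 in 20 groups of independent, normally distributed values. The groups here share libraries, and many bone marrow levels are skewed, so the count cannot be set against that rate. In adipose with glutamine, Rplp2 at 1163 CPM, Rpl23 at 1078 CPM and Rps3 at 711 CPM were highest in library 10_12, and Rpl4 at 720.3 CPM was lowest in 13_15. In adipose with HFD alone, Rpl22l1 at 172 CPM was highest in 1_3. In bone marrow with glutamine, library 25_27 was highest for Rpl10 at 437 CPM, Rpl30 at 1315 CPM, Rps2 at 1163 CPM and Rpl7l1 at 862 CPM. Library 4_6 was highest there for Rplp1 at 8834 CPM and Rps6 at 25.8 CPM, and library 18_20 for Rpl10a at 26.3 CPM and Rps15 at 249 CPM. In bone marrow with HFD alone, library 23_28 was highest for Rpl13 at 2737 CPM and Rpl15 at 965 CPM, and library 5_11 for Rpl10 at 16.2 CPM and Rpl22l1 at 16.6 CPM.

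The test of the difference between the tissues' glutamine effects set apart Rpl36 at -6.51 and Rps27l at -5.83 (log2, adipose minus bone marrow), with an edgeR adjusted p of 0.0432 for both over 15203 genes, of which 11.9% were called, against 2 of 81 members. The fit gave each gene a dispersion shared by both tissues, although bone marrow libraries scattered more. Both calls were lost in 13 of 18 fits that left out 1 library, and with relative log expression factors, upper-quartile factors, limma-voom or the replicate block. Rpl36 was above 100 CPM in 3 of 5 bone marrow glutamine libraries and in 0 of 4 HFD libraries.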

How the results depend on the processing

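Depth and detection in bone marrow limit these results. The members vary between its libraries by a median dispersion of 2.56, beside 3.32 over all genes tested there. Fits of all 18 libraries used dispersions shared by both tissues, at a median of 1.03 for the members. The fitted change of a member near 0 counts in 1 arm depends on the prior count. A common change of all members cannot be told from a change of scaling. Glutamine comparisons: 0 members were called under each scaling, filter and left-out library, but DESeq2 called 6 in bone marrow (Rpl10, Rpl10a, Rpl22l1, Rpl36, Rps15, Rps27l) and 1 in adipose, and the joint fit of all libraries 9 in bone marrow. For the difference of effects, 0 were called with relative log expression factors, upper-quartile factors, limma-voom or the replicate block, 1 without a count filter or with pseudogene rows added, 6 with DESeq2, and 0 to 4 when 1 library was left out. Adipose over bone marrow: 73 were called with relative log expression factors (0 higher, 73 lower), 72 with DESeq2 (0 higher, 72 lower), 27 without a count filter (23 lower), 9 with library totals (9 higher, 0 lower), and upper-quartile factors gave 1 higher and 66 lower, limma-voom 9 higher. The replicate block gave 25 (22 lower), at a median log2 difference of -0.96 for the members and 3.93 for all genes. The share of all genes called under the block is not given here, so that count has no background. Leaving out 1 library gave 35 to 45, of which 1 to 4 higher and 33 to 42 lower.

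Directions of named members changed as follows. With pseudogene rows added, Rpl10a turned to 0.41 in bone marrow and -0.62 in the difference of effects, and Rps15 to -0.76 between tissues. Rpl13 in adipose was -0.026 in the joint fit. Between tissues, with relative log expression factors, upper-quartile factors and DESeq2 in turn, Rps27l was -0.70, -0.20 and -0.69, Rpl36 -1.61, -0.96 and -1.60, Rps15 -2.49, -2.01 and -2.49, and Rpl22l1 -3.68, -3.03 and -3.68. Rps27 was 0.16 without a filter, 2.38 with limma-voom, 1.67 with the block and 1.59 with library totals. Rps15 was -0.057 with the stricter filter, and Rpl15 was 0.95 with the block. When 1 library was left out the near-zero differences of Rps15 (-0.024 to 1.59), Rps27 (-0.088 to 1.19) and Rpl22l1 (-0.11 to 1.03) changed sign in some fits. The number pairs are shared between tissues. Deviations of same-numbered libraries had correlations of -0.00906 to 0.0302, and 4 of 8 libraries matched their own number best. With so wide a spread between bone marrow libraries, this check cannot decide whether same-numbered libraries share more than a number. Calls lost under the block are therefore given as lost. Within a tissue no paired analysis was possible because the arms share no number pair. Counts of members differed from the printed ones for no other setting by over 1.5 times, and the summed shares moved by less than their SD with pseudogene rows added or mitochondrial counts removed.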
